A study of Homo sapiens with 4 samples.

Results

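The 50 G2/M and mitosis genes described were chosen by name from the 20003 genes of the files, with kinesins other than CENPE left out. They were taken as mitotic cyclins and kinases and genes of the spindle checkpoint, kinetochore, condensin, spindle and cytokinesis. They were measured by RNA sequencing in HCT116, a human colorectal cancer cell line, in 2 libraries of NUDT21 knockdown cells, shNUDT21 1 and shNUDT21 5, and 2 libraries of control cells, shPLKO 1 and shPLKO 2. NUDT21 is a subunit of the cleavage factor that helps choose where pre-mRNAs are cut and polyadenylated. The labels give the genotypes as NUDT21 knockdown and WT, with no treatment in either group and the same time value for all 4 libraries; the series design calls the control shScramble. All 4 libraries thus came from cells with a short hairpin vector, as far as the names tell. Nothing in the labels tells if 1 and 5 are hairpins or replicates, if the cells were pools or clones, or if a group's libraries are of separate cultures. A p-value here thus covers only library-to-library spread, perhaps a technical one, and each shNUDT21 library is also given on its own.

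Cells enter mitosis when cyclin B bound to the kinase CDK1 is switched on by CDC25 phosphatases. The spindle checkpoint then holds the cell in metaphase until kinetochores are attached, and the anaphase-promoting complex, a ubiquitin ligase, destroys cyclin B and securin to start anaphase and exit. Most mRNAs of this programme accumulate in G2 and mitosis. Their promoters often carry a CHR element (cell cycle genes homology region), bound by the MuvB core of the DREAM repressor or of the B-MYB and FOXM1 activator complexes, together with CCAAT boxes bound by NF-Y.

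Promoters of 6 members are shown because they span the responses described below. CCNB2 and PLK1 were past 1.5-fold higher in shNUDT21 1 and not in shNUDT21 5, HJURP was high in shNUDT21 1 and low in shNUDT21 5, NDC80 and CDC25B were high in both, and NCAPD2 was low in both. Each stretch runs from 150 bases before to 20 bases after the start of transcription in RefSeq (GRCh38.p14), 5′ to 3′ on the gene's strand. They lie at chr15:59104996-59105165 (+) for CCNB2, chr16:23678739-23678908 (+) for PLK1, chr2:233854516-233854685 (-) for HJURP, chr18:2571407-2571576 (+) for NDC80, chr20:3786801-3786970 (+) for CDC25B and chr12:6493952-6494121 (+) for NCAPD2. Capitals mark matches on either strand to a CHR, searched as TTTGAA and as the palindromic form TTTAAA, and to a CCAAT box.
CCNB2: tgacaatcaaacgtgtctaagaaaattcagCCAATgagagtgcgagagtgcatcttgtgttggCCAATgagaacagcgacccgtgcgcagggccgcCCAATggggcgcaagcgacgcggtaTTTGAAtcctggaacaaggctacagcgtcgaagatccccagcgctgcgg
PLK1: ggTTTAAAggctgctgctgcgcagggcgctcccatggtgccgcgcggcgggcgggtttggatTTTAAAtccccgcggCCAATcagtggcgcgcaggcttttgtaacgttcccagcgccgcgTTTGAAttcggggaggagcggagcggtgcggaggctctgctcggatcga
HJURP: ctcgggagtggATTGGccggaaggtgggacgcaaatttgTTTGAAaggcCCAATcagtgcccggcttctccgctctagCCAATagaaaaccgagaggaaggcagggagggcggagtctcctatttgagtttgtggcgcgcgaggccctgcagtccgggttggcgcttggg
NDC80: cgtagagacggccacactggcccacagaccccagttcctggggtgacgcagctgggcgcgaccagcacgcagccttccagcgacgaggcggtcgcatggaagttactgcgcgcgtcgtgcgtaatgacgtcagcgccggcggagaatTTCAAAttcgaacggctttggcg
CDC25B: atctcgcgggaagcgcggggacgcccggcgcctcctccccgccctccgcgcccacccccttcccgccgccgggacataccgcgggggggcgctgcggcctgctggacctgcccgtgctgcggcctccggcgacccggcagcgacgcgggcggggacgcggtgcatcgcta
NCAPD2: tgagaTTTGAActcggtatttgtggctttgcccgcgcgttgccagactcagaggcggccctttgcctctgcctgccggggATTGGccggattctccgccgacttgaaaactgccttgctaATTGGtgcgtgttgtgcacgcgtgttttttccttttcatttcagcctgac

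The CCNB2 stretch held 3 CCAAT boxes upstream of 1 CHR match, and the PLK1 stretch held 3 CHR matches and 1 CCAAT box. HJURP had 1 CHR match and 3 CCAAT boxes and NCAPD2 had 1 and 2. NDC80 had 1 CHR match, on the reverse strand, and no CCAAT letters, and the stretch of CDC25B, the first of its 4 annotated starts, had neither. A match is a run of letters and not a shown binding site.

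The check of the labels came out as named. NUDT21 was at 3.96 and 3 RPKM in shNUDT21 1 and 5, against 24.3 and 26.9 RPKM in shPLKO 1 and 2 (log2 difference -2.58, SE 0.16, limma adjusted p 0.0406; 0.127 and 0.119 without shPLKO 1 or 2, and 0.0653 with no filter on low genes). RPKM corrects reads for gene length and library depth. The libraries held 30243349 and 29963980 reads in shNUDT21 and 30459886 and 30306821 in shPLKO, and the members drew between 158 and 16057 reads each (median 1139). Of 9 epithelial markers 6 were at or above 1 RPKM in every library; the list summed to 3430 and 4150 RPKM in shNUDT21, against 9870 and 9220 in shPLKO, carried by KRT8, KRT18 and KRT19, while EPCAM, CDH1 and CDX2 were higher in both shNUDT21 libraries than in shPLKO (EPCAM at 162 and 180 RPKM in shNUDT21, against 130 and 132 RPKM in shPLKO). The other 3 (CDH17, VIL1 and CDX1) stayed at or below 0.133 RPKM, with 2 of the list at 0 in some library. The 4 leukocyte and 3 endothelial markers stayed at or below 0.603 and 0.136 RPKM, and 1 of 5 fibroblast markers, COL1A1, was above 1 RPKM throughout, the list summing to 5.28 and 7.68 RPKM in shNUDT21 and 6.77 and 7.32 in shPLKO.

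Nearly all of the 50 genes were higher in shNUDT21 1 than in the controls, while in shNUDT21 5 they lay on both sides. In shNUDT21 1, 49 of 50 members were above the control mean (51.5% of all 11124 genes tested), NCAPD2 being the exception. In shNUDT21 5, 29 of 50 were above it (48.3% of all genes). The median difference from the controls, on the log2(RPKM + 1) scale used for all differences here, was 0.86 in shNUDT21 1 (0.02 over all genes) and 0.04 in shNUDT21 5 (-0.02 over all genes). In bulk RNA a larger share of cells in G2 or mitosis and more mRNA per cell cannot be told apart.

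A difference was counted for a single library when it was past 1.5-fold on the log2(RPKM + 1) scale (0.585) and outside both control values. In shNUDT21 1, 39 members were higher by this rule (12.6% of all genes) and 0 were lower (10.8%). In shNUDT21 5, 7 were higher (13%) and 6 were lower (13.9%), so 14% and 12% of the members, close to the share of all genes. The 7 were CDC25B, TTK, NDC80, SPC24, SMC4, NCAPG and ECT2, and each was also past 1.5-fold higher in shNUDT21 1 (5.61% of all genes were past it in both). The 6 were HJURP, BIRC5, UBE2S, NCAPD2, NCAPH and LMNB1. As plain ratios of RPKM, BUB1B (1.58-fold), SMC2 (1.84-fold) and CENPE (2.23-fold) were also past 1.5-fold in shNUDT21 5, since the added 1 shrinks the differences of low genes. Past 2-fold on the log2(RPKM + 1) scale, 17 were higher in shNUDT21 1 (3.02%), and in shNUDT21 5 CDC25B was higher (3.93%) and NCAPD2 lower (3.29%). Between shPLKO 1 and 2, 0 members were past 1.5-fold (0.0989% of all genes). Both knockdown libraries were set against the same 2 controls.

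**Figure D1:**
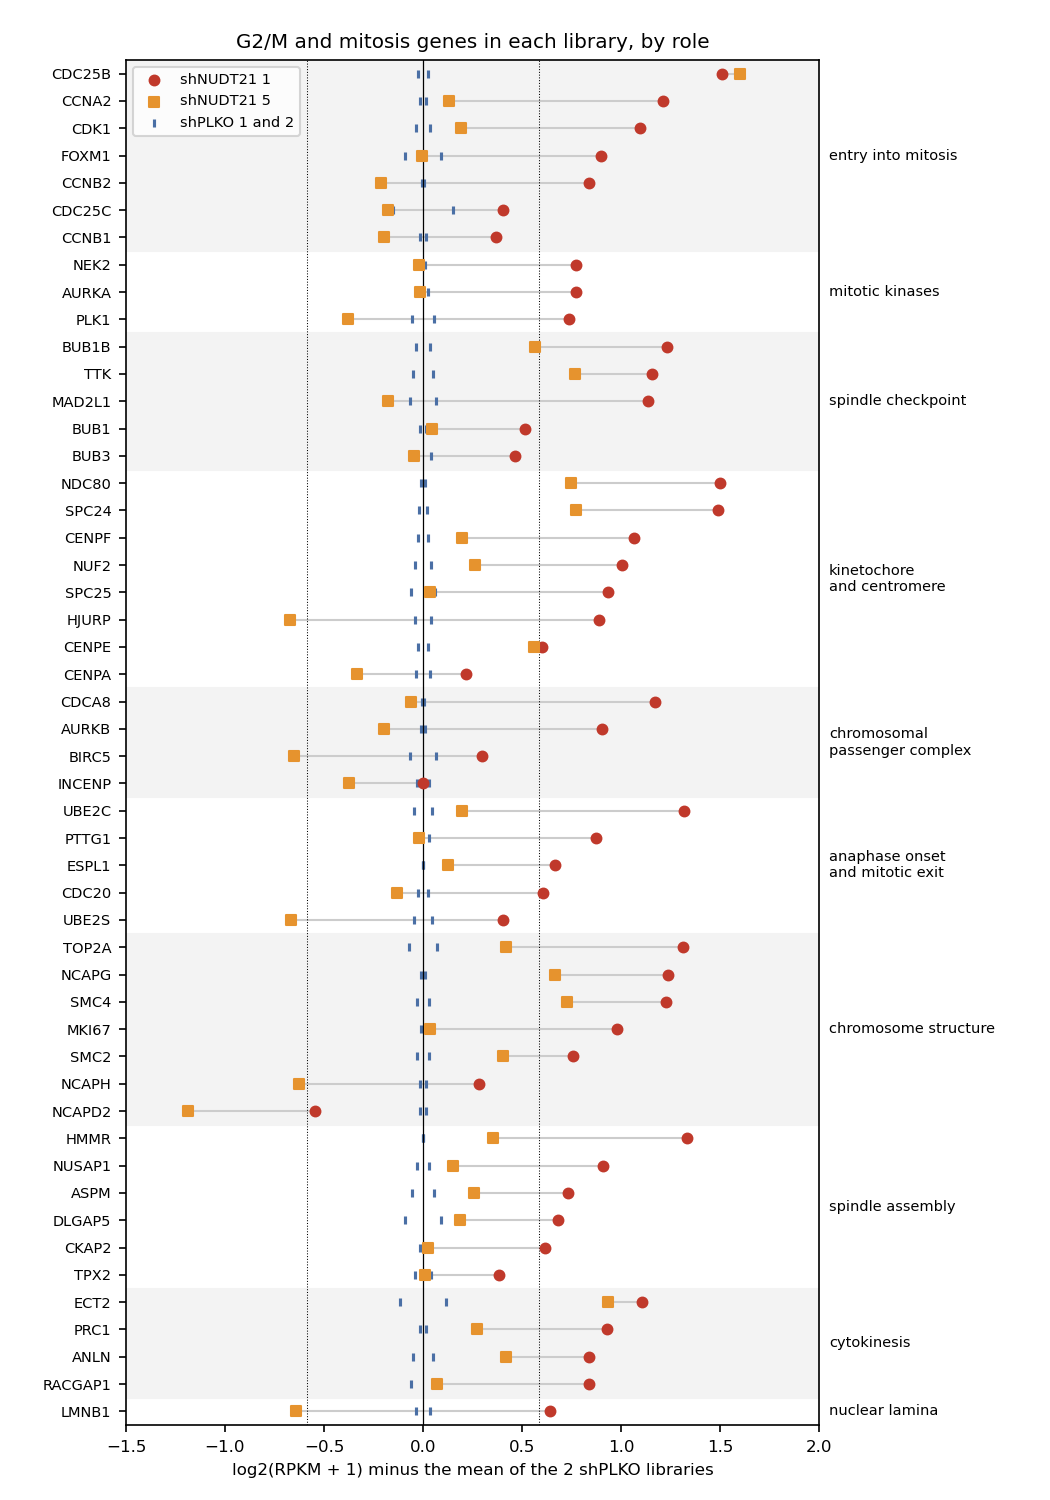
Difference of each member from the mean of the shPLKO libraries on the log2(RPKM + 1) scale, grouped by role, with shNUDT21 1 as circles, shNUDT21 5 as squares, the 2 shPLKO libraries as short bars and 1.5-fold as dotted lines. The circles lie right of 0 for 49 of 50 genes, the squares lie on both sides of it, and only CDC25B has its square to the right of its circle.

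**Figure D2:**
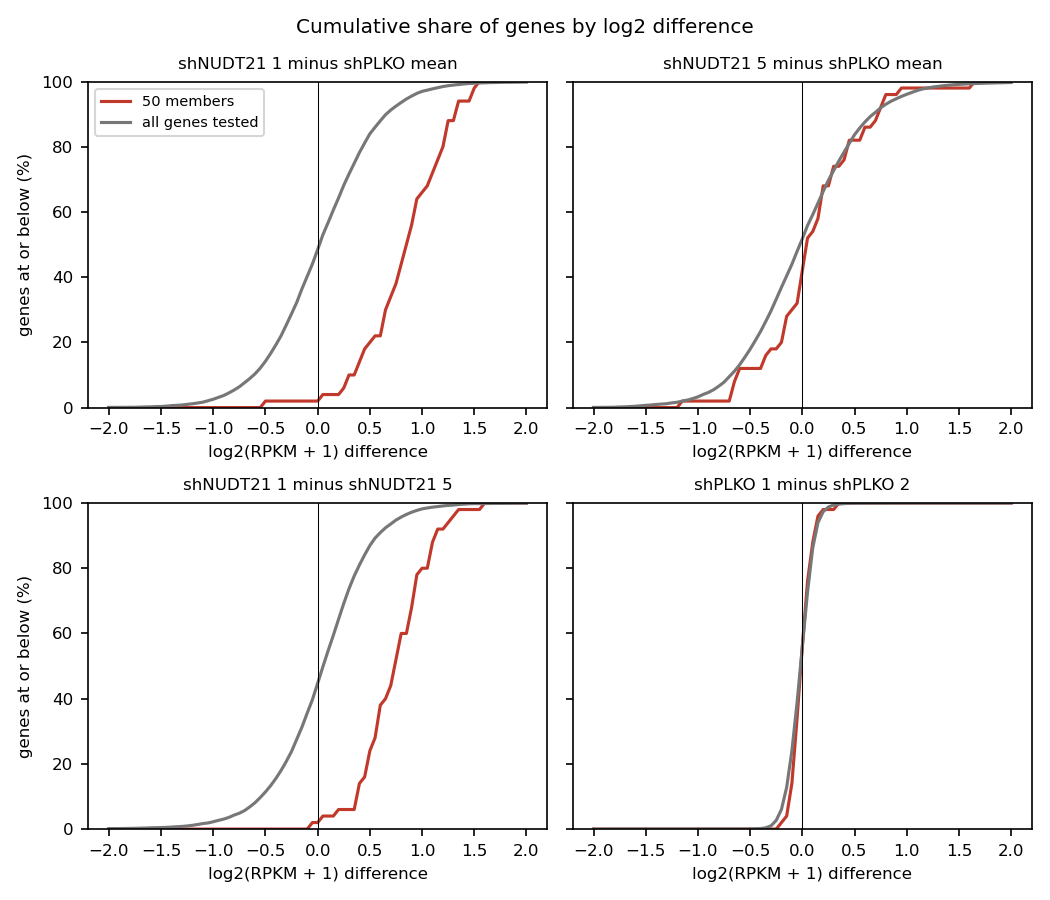
Cumulative share of genes (%) at or below each log2(RPKM + 1) difference, for the 50 members and for all 11124 genes tested, in 4 comparisons. The members' curve is shifted to the right in shNUDT21 1 against shPLKO (median 0.86) and in shNUDT21 1 against shNUDT21 5 (median 0.75). In shNUDT21 5 against shPLKO it lies below that of all genes from -0.5 to 0 (20% and 36.9% at or below -0.2). From 0.2 upwards it is close to that of all genes. In shPLKO 1 against shPLKO 2 the curves run near each other, with 14% of members and 24% of all genes at or below -0.1.

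With the libraries taken as 2 against 2, limma called 2 members higher (2.61% of all genes, adjusted p under 0.05), CDC25B and ECT2, and 0 lower (3.21%). At an unadjusted p under 0.05, 12 members were higher (16.6% of all genes) and 1, NCAPD2, was lower (17.3%). In 27 members both shNUDT21 values lay above both shPLKO values (32.8% of all genes), and in 1, again NCAPD2, both lay below (33.4%). Without CENPE, SMC2 and ASPM, which were under 1 RPKM in both controls and passed the filter on low values through the knockdown libraries, the 12 became 10 and the 27 became 24. The 27 include members such as MKI67, BUB1 and CKAP2 whose shNUDT21 5 value exceeds the controls by little.

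Among the genes of mitotic entry, CDC25B rose in shNUDT21 cells, and CCNB2, CCNA2, CDK1 and FOXM1 were past 1.5-fold higher in shNUDT21 1 and not in shNUDT21 5. CDC25B, a phosphatase that removes the inhibitory phosphates from CDK1, was at 61.8 and 66 RPKM in shNUDT21 1 and 5, against 21.4 and 20.7 RPKM in shPLKO 1 and 2. The level was 2.93-fold the control mean in shNUDT21 1 and 3.13-fold in shNUDT21 5, and the groups did not overlap (log2 difference 1.56, SE 0.12, limma adjusted p 0.0406). The call was lost without shPLKO 1 or 2 (adjusted p 0.352 and 0.335) and with no filter on low genes (0.0653), at nearly the same difference. Its relative CDC25C was at 6.09 and 3.74 RPKM in shNUDT21, against 4.96 and 3.81 in shPLKO, with the shNUDT21 5 value just under both controls.

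CCNB2, a mitotic cyclin that activates CDK1, was at 39.6 and 18.6 RPKM in shNUDT21 1 and 5, against 21.7 and 21.8 RPKM in shPLKO 1 and 2. CCNA2, the cyclin of S phase and G2, was at 31.4 and 14.3 RPKM in shNUDT21, against 13.2 and 12.8 RPKM in shPLKO. CDK1 itself was at 33.6 and 17.5 RPKM in shNUDT21, against 14.8 and 15.6 RPKM in shPLKO (log2 difference 0.65, SE 0.32, limma adjusted p 0.225). In all 3 the shNUDT21 1 value was about double the controls or close to it, while shNUDT21 5 was within 0.856-fold and 1.15-fold of their mean. CCNB1, the main mitotic cyclin, was nearer the controls, at 46.1 and 30.9 RPKM in shNUDT21 against 36 and 35.1 RPKM in shPLKO. FOXM1, the transcription factor that activates many G2/M genes, was at 15 and 7.55 RPKM in shNUDT21, against 8.13 and 7.06 RPKM in shPLKO, and its shNUDT21 5 value lay between the controls.

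The mitotic kinases were likewise past 1.5-fold higher in shNUDT21 1 and not in shNUDT21 5. PLK1, which acts at centrosomes, kinetochores and the cleavage plane, was at 41.4 and 18.5 RPKM in shNUDT21 1 and 5, against 25.4 and 23.5 RPKM in shPLKO 1 and 2. AURKA, the spindle pole kinase, was at 13.9 and 7.65 RPKM in shNUDT21, against 7.59 and 7.87 RPKM in shPLKO (log2 difference 0.38, SE 0.28, limma adjusted p 0.39). NEK2, a centrosome kinase, was at 10.1 and 5.39 RPKM in shNUDT21, against 5.52 and 5.42 RPKM in shPLKO (0.38, SE 0.28, adjusted p 0.395). For each of the 3 the libraries of shNUDT21 lay further apart than the group means, so the limma test did not call them, and PLK1 was below both controls in shNUDT21 5.

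The spindle checkpoint genes split. TTK, the kinase also called MPS1 that recruits the checkpoint to kinetochores, was at 7.81 and 5.71 RPKM in shNUDT21 1 and 5, against 3.09 and 2.81 RPKM in shPLKO 1 and 2 (log2 difference 0.96, SE 0.18, limma adjusted p 0.0507). BUB1B, which encodes the checkpoint protein BUBR1, was at 12.5 and 7.49 RPKM in shNUDT21, against 4.6 and 4.87 RPKM in shPLKO (0.90, SE 0.25, adjusted p 0.0856). Both genes were above the controls in each knockdown library, without passing the test. With libraries rescaled by the median of ratios TTK passed (limma adjusted p 0.0439), while with no filter on low genes it was further from passing (0.0901). MAD2L1, the MAD2 protein that inhibits CDC20, was at 60.6 and 23.9 RPKM in shNUDT21, against 25.8 and 28.4 RPKM in shPLKO, more than 2-fold high in shNUDT21 1 and below both controls in shNUDT21 5 (0.48, SE 0.45, adjusted p 0.484). BUB1 and BUB3, kinetochore partners of the checkpoint, were 1.47-fold and 1.39-fold the control mean in shNUDT21 1 and 1.03-fold and 0.969-fold in shNUDT21 5. The reads of BUB1B overlap an annotated read-through gene on the same strand.

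The NDC80 complex, which binds spindle microtubules at the outer kinetochore, had 4 measured subunits with unequal values. NDC80 was at 13 and 7.31 RPKM in shNUDT21 1 and 5, against 3.99 and 3.9 RPKM in shPLKO 1 and 2. SPC24 was at 10.1 and 5.78 RPKM in shNUDT21, against 3.02 and 2.91 RPKM in shPLKO (log2 difference 1.13, SE 0.26, limma adjusted p 0.0663). NUF2 was at 11.6 and 6.54 RPKM in shNUDT21, against 5.12 and 5.46 RPKM in shPLKO. SPC25 was at 13.4 and 6.76 RPKM in shNUDT21, against 6.89 and 6.26 RPKM in shPLKO. In shNUDT21 1 the 4 were 3.29-fold, 3.42-fold, 2.2-fold and 2.04-fold the control mean in the order given; in shNUDT21 5 NDC80 and SPC24 were 1.85-fold and 1.95-fold, NUF2 1.24-fold, and SPC25 lay between the controls.

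At the centromere, CENPE, a motor that carries chromosomes to the metaphase plate, was low in all libraries but alike in both knockdowns, at 1.48 and 1.41 RPKM in shNUDT21 against 0.663 and 0.605 RPKM in shPLKO (log2 difference 0.58, SE 0.11, limma adjusted p 0.0548). It passed the filter on low values through the knockdown libraries, as did SMC2 and ASPM; without these 3, 36 of 47 members were past 1.5-fold higher in shNUDT21 1. HJURP, the chaperone that loads the centromeric histone CENP-A, was at 18.9 and 5.75 RPKM in shNUDT21 1 and 5, against 10.1 and 9.45 RPKM in shPLKO 1 and 2. It was 1.94-fold the control mean in shNUDT21 1 and 0.589-fold in shNUDT21 5, the widest split of any member, 3.29-fold between the knockdown libraries (log2 difference 1.56); between the groups its log2 difference was 0.11 (SE 0.52, limma adjusted p 0.897). CENPA itself was 1.18-fold the control mean in shNUDT21 1 and 0.773-fold in shNUDT21 5, and CENPF, a large kinetochore protein of G2, was 2.65-fold and 1.22-fold in the same order.

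The chromosomal passenger complex corrects faulty attachments and has its kinase and 3 partners among the members. CDCA8, which encodes borealin, was at 24.7 and 9.95 RPKM in shNUDT21 1 and 5, against 10.4 and 10.4 RPKM in shPLKO 1 and 2 (log2 difference 0.56, SE 0.42, limma adjusted p 0.395). AURKB, the kinase, was at 32.1 and 14.4 RPKM in shNUDT21, against 16.5 and 16.8 RPKM in shPLKO. BIRC5, which encodes survivin, was at 35.9 and 18.1 RPKM in shNUDT21, against 30.4 and 27.7 RPKM in shPLKO. All 4 genes were below the control mean in shNUDT21 5 (51.7% of all genes were), CDCA8 by only 0.059 on the log2(RPKM + 1) scale. INCENP, the scaffold, was the 1 member at the control mean in shNUDT21 1. It was at 8.83 and 6.59 RPKM in shNUDT21 1 and 5, against 8.61 and 9.05 RPKM in shPLKO 1 and 2 (log2 difference -0.19, SE 0.17, limma adjusted p 0.481).

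Among the genes of anaphase onset and exit, UBE2C, the ubiquitin-conjugating enzyme that starts chains for the anaphase-promoting complex, was at 102 and 46.3 RPKM in shNUDT21 1 and 5, against 41.6 and 38.9 RPKM in shPLKO 1 and 2 (log2 difference 0.76, SE 0.39, limma adjusted p 0.238). UBE2S, the enzyme that extends those chains, was at 286 and 136 RPKM in shNUDT21, against 223 and 209 RPKM in shPLKO. So the 2 enzymes were on opposite sides of the controls in shNUDT21 5. CDC20, the activator of the complex, was at 193 and 115 RPKM in shNUDT21, against 129 and 125 RPKM in shPLKO. PTTG1, which encodes securin, was at 71 and 37.8 RPKM in shNUDT21, against 39 and 37.5 RPKM in shPLKO. ESPL1, separase, which cuts cohesin, was 1.69-fold the control mean in shNUDT21 1 and 1.11-fold in shNUDT21 5 (0.40, SE 0.21, adjusted p 0.253). UBE2C, UBE2S and PTTG1 have 4, 2 and 2 annotated copies elsewhere in the genome, with which reads could be shared.

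The condensin I subunits did not move together. SMC4, an ATPase of the ring, was at 11.1 and 7.59 RPKM in shNUDT21 1 and 5, against 4.09 and 4.29 RPKM in shPLKO 1 and 2 (log2 difference 0.98, SE 0.20, limma adjusted p 0.0577). It passed with median of ratios scaling (limma adjusted p 0.049), while with no filter on low genes it was further from passing (0.0999). NCAPG, a HEAT-repeat subunit, was at 11.1 and 7.11 RPKM in shNUDT21, against 4.07 and 4.16 RPKM in shPLKO (0.95, SE 0.22, adjusted p 0.0667). Both were high in each knockdown library. NCAPD2, the other HEAT-repeat subunit, was at 18.2 and 11.3 RPKM in shNUDT21, against 26.8 and 27.3 RPKM in shPLKO, or 0.674-fold in shNUDT21 1 and 0.418-fold in shNUDT21 5, and was the only member below the controls in both (-0.87, SE 0.24, adjusted p 0.0872; this test is given because of that pattern, after its values were seen). NCAPH, the kleisin that closes the ring, was at 5.7 and 2.57 RPKM in shNUDT21, against 4.46 and 4.55 RPKM in shPLKO, on opposite sides of the controls. SMC2, the partner of SMC4, was at 1.74 and 1.15 RPKM in shNUDT21, against 0.589 and 0.655 RPKM in shPLKO (0.58, SE 0.16, adjusted p 0.0881). The exons of SMC4, NCAPG and NCAPD2 overlap genes on the other strand (TRIM59 and IFT80, LCORL, and MRPL51), and since the use of strand is not given in the sources used here, their reads cannot be told apart there.

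TOP2A, the topoisomerase that untangles sister chromatids, was at 13.6 and 6.85 RPKM in shNUDT21 1 and 5, against 4.58 and 5.17 RPKM in shPLKO 1 and 2. MKI67, the proliferation marker Ki-67 that coats mitotic chromosomes, was at 15.6 and 7.62 RPKM in shNUDT21, against 7.34 and 7.48 RPKM in shPLKO. Both genes were above both controls in each knockdown library, MKI67 in shNUDT21 5 only just.

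All 6 spindle assembly genes were above the control mean in both libraries (51.5% of all genes in shNUDT21 1 and 48.3% in shNUDT21 5, each taken alone). The share of all genes above it in both was not counted. TPX2 in shNUDT21 5 was above it by only 0.008 and lay between the controls. ASPM passed the filter on low values through the knockdown libraries. The medians of the 6 were 0.71 in shNUDT21 1 and 0.17 in shNUDT21 5. HMMR, a microtubule-binding protein of the spindle pole, was at 10.1 and 4.61 RPKM in shNUDT21 1 and 5, against 3.39 and 3.38 RPKM in shPLKO 1 and 2 (log2 difference 0.85, SE 0.34, limma adjusted p 0.161). ASPM, which focuses spindle poles, was at 2.17 and 1.28 RPKM in shNUDT21, against 0.838 and 0.988 RPKM in shPLKO (0.49, SE 0.20, adjusted p 0.156). NUSAP1, DLGAP5, CKAP2 and TPX2, which bind or nucleate spindle microtubules, ranged from 1.31-fold (TPX2) to 1.94-fold (NUSAP1) in shNUDT21 1 and from 1.01-fold (TPX2) to 1.16-fold (DLGAP5) in shNUDT21 5. None of the 6 passed the limma test, and none was past 1.5-fold in shNUDT21 5.

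The cytokinesis genes were above both controls in both libraries (32.8% of all genes were), and ECT2 rose. ECT2, the exchange factor that activates RhoA at the cleavage furrow, was at 7.24 and 6.33 RPKM in shNUDT21 1 and 5, against 2.53 and 3.16 RPKM in shPLKO 1 and 2. The knockdown libraries were close to each other, at 2.55-fold the control mean in shNUDT21 1 and 2.23-fold in shNUDT21 5 (log2 difference 1.02, SE 0.15, limma adjusted p 0.0431). The call was lost without shPLKO 1 or 2 (adjusted p 0.491 and 0.381), with no filter on low genes (0.0739) and with the GC and length trend removed (0.76 on the log2 scale, 0.0593). ANLN, the furrow scaffold anillin, was at 13.3 and 9.67 RPKM in shNUDT21, against 6.71 and 7.27 RPKM in shPLKO (0.63, SE 0.18, adjusted p 0.0946). PRC1, which bundles midzone microtubules, was at 38.8 and 24.2 RPKM in shNUDT21, against 20.1 and 19.6 RPKM in shPLKO, and RACGAP1, of the centralspindlin complex, at 24 and 13.7 RPKM in shNUDT21, against 12.5 and 13.6 RPKM in shPLKO. RACGAP1 in shNUDT21 5 was level with shPLKO 2. PRC1 shares exon sequence with other annotated genes on both strands.

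LMNB1, the nuclear lamina protein lamin B1, was at 24 and 9.27 RPKM in shNUDT21 1 and 5, against 15.4 and 14.6 RPKM in shPLKO 1 and 2. It was above the controls in shNUDT21 1 and below them in shNUDT21 5, and the means of the groups were equal within error (log2 difference -0.001, SE 0.44, limma adjusted p 0.998).

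**Figure D3:**
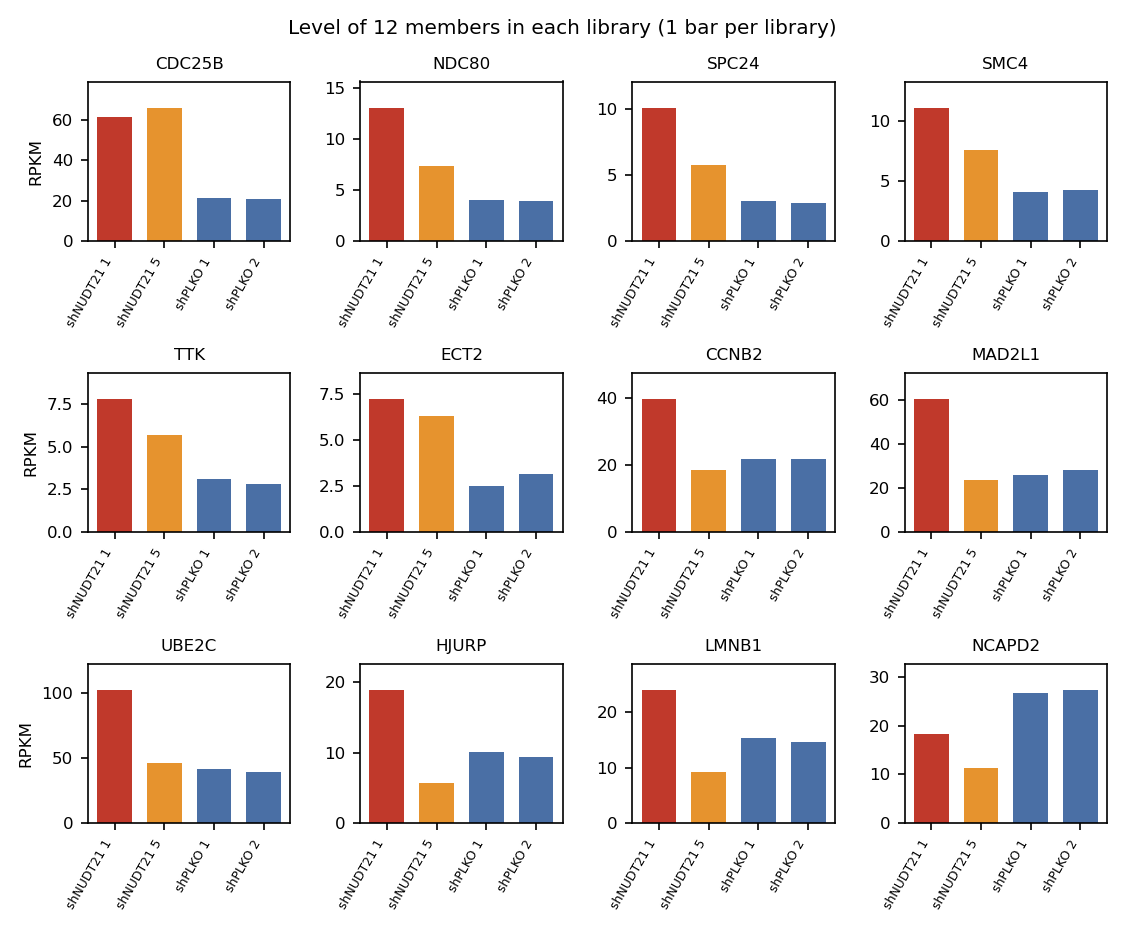
Level of 12 members in RPKM in each library, 1 bar per library, with shNUDT21 1 and 5 left of shPLKO 1 and 2 and each vertical axis starting at 0. CDC25B and ECT2 are high in both knockdown libraries, CCNB2 and MAD2L1 in shNUDT21 1 alone, HJURP and LMNB1 lie above the controls in shNUDT21 1 and below them in shNUDT21 5, and NCAPD2 is below the controls in both.

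Set directly against each other, the knockdown libraries differed in the same direction for 49 of 50 members, all higher in shNUDT21 1 than in shNUDT21 5 except CDC25B (55.3% of all genes were higher in shNUDT21 1). By the 1.5-fold rule 32 members were higher in shNUDT21 1 (9.66% of all genes) and 0 were lower (8.57%), 10 were higher past 2-fold (1.81%), and the median difference was 0.75 (0.05 over all genes). On the log2(RPKM + 1) scale the widest splits after HJURP were those of MAD2L1, LMNB1, CDCA8 and UBE2C, at 1.31, 1.28, 1.23 and 1.12. Their plain ratios of RPKM were 2.54-fold, 2.59-fold, 2.49-fold and 2.2-fold in that order. As plain ratios, PLK1 (2.24-fold), AURKB (2.22-fold) and NCAPH (2.22-fold) were wider than UBE2C. The narrowest splits on the log2(RPKM + 1) scale were those of CDC25B (-0.09), CENPE (0.04), ECT2 (0.17), SMC2 (0.36, on a low level) and INCENP (0.37). A limma fit of 3 groups, in which each knockdown library is assumed to vary like the controls, called 47 members higher in shNUDT21 1 than in shNUDT21 5 (30% of all genes) and 0 lower (23.7%); CDC25B, CENPE and ECT2 were not called (SE 0.09, 0.14 and 0.13, adjusted p 0.397, 0.836 and 0.287). The 5 widest splits had SE 0.09 to 0.12 and adjusted p 3.76e-43 (MAD2L1) to 2.04e-27 (CDCA8), and SMC2 and INCENP had 0.0196 and 0.00548. These p-values compare 1 library with 1 library. That fit rests on the gap between 2 controls, with 1 residual degree of freedom and an infinite prior, and called 53.6% of all genes in either direction, so it says only that the split exceeds the control gap. With no filter on low genes it called 0 members, although 44 of them had an unadjusted p under 0.05. NUDT21 itself was slightly higher in shNUDT21 1, at 15.5% of the control mean against 11.7% in shNUDT21 5.

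The GC content of the members' transcripts was lower than that of all genes, with medians of 43.5% and 49.4%, and differences varied with it. GC content and length were those of each gene's longest annotated transcript. It can differ from the gene model recovered from the RPKM, as for MAD2L1 (5468 against 1438 bases). Across genes, which are not independent replicates and share these 4 libraries, Spearman's rho of GC content with the shNUDT21 1 difference was -0.25 over the members and -0.35 over all genes. With the shNUDT21 5 difference it was -0.53 over the members and -0.36 over all genes, and with the gap between shPLKO 1 and 2 it was 0.49 and 0.49. With the difference between shNUDT21 1 and shNUDT21 5 it was 0.27 over the members and 0.03 over all genes. Transcript length had a rho of -0.38 and -0.17 with that difference, in the same order. After removal of the GC and length trend from each library, 33 members were past 1.5-fold higher in shNUDT21 1 than in shPLKO. By the same rule 34 were higher in shNUDT21 1 than in shNUDT21 5. In shNUDT21 5, 4 were higher and 1 lower than in shPLKO, against 7 and 6 as deposited. The share of all genes past 1.5-fold was not counted with the trend removed, so these counts have no background beside them.

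Other genes of the same processes were taken as 10 lists. Of the mitotic entry regulators, WEE1, the kinase that puts the inhibitory phosphate on CDK1, rose, with 14.8 and 13.6 RPKM in shNUDT21 1 and 5, against 4.85 and 5.37 RPKM in shPLKO 1 and 2 (log2 difference 1.32, SE 0.13, limma adjusted p 0.0406). It was the only 1 of 13 regulators to pass, and the list's medians were 0.85 in shNUDT21 1 and 0.41 in shNUDT21 5. Of the 27 measured genes of the constitutive centromere and kinetochore network 3 rose and 0 fell. These were CENPQ (5.65 and 5.09 RPKM in shNUDT21, 1.89 and 2.1 in shPLKO) and CENPU (5.12 and 4.31 in shNUDT21, 1.99 and 2.3 in shPLKO), subunits of the inner kinetochore, and SKA1 (10.3 and 8.74 in shNUDT21, 3.88 and 3.32 in shPLKO), of the complex that holds on to microtubule ends.

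Of 15 cohesin genes, PDS5A and STAG2, a regulator and a subunit of the ring that joins sister chromatids, rose, and 0 fell. PDS5A was at 13.7 and 16 RPKM in shNUDT21, against 6.35 and 7.54 RPKM in shPLKO, and STAG2 at 10.7 and 13.3 RPKM in shNUDT21, against 4.8 and 5.72 RPKM in shPLKO. The cohesin medians were near each other, 0.60 in shNUDT21 1 and 0.43 in shNUDT21 5. Of 23 measured spindle and centrosome genes only HAUS5, an augmin subunit, passed, and it fell (4.71 and 4.1 RPKM in shNUDT21, against 8.2 and 8.47 RPKM in shPLKO). Of 12 DREAM and B-MYB genes only E2F5, a repressor E2F, passed, and it rose (13.9 and 15.2 RPKM in shNUDT21, against 6.74 and 7.02 RPKM in shPLKO). Of 8 CDK inhibitors only CDKN2D, which binds CDK4 and CDK6, passed, and it fell (13.9 and 11.7 RPKM in shNUDT21, against 30.1 and 29.1 RPKM in shPLKO). These calls stand against 2.61% of all genes higher and 3.21% lower. All 9 were lost with no filter on low genes (limma adjusted p 0.0653 to 0.0817), without shPLKO 1 (0.399 to 0.515) and without shPLKO 2 (0.335 to 0.46), and with the GC and length trend removed WEE1 alone was called (0.0487).

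Limma called 0 of 16 genes of the anaphase-promoting complex, 0 of 7 of condensin II and condensation, 0 of 12 of cytokinesis and abscission and 0 of 21 measured genes of G1/S and replication; 5, 1, 3 and 2 of them had an unadjusted p under 0.05, against 33.9% of all genes. The G1/S and replication genes had a median of 0.51 in shNUDT21 1 and -0.17 in shNUDT21 5. Of the 21, 18 were higher in shNUDT21 1 than in shNUDT21 5 (55.3% of all genes were). Of these 11 were past 1.5-fold higher (9.66% of all genes), and 1 of the 21 was past 1.5-fold lower (8.57%). That gene was CCNE1, a cyclin E of G1/S. CCNE1 was at 12.7 and 48.6 RPKM in shNUDT21 1 and 5, against 25.7 and 24.2 RPKM in shPLKO 1 and 2. CCNE2, also a cyclin E, went the other way, at 4.5 and 1.21 RPKM in shNUDT21, against 1.39 and 1.57 RPKM in shPLKO. Both were named after their values were seen. The anaphase-promoting complex had medians of 0.27 and 0.01.

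**Figure D4:**
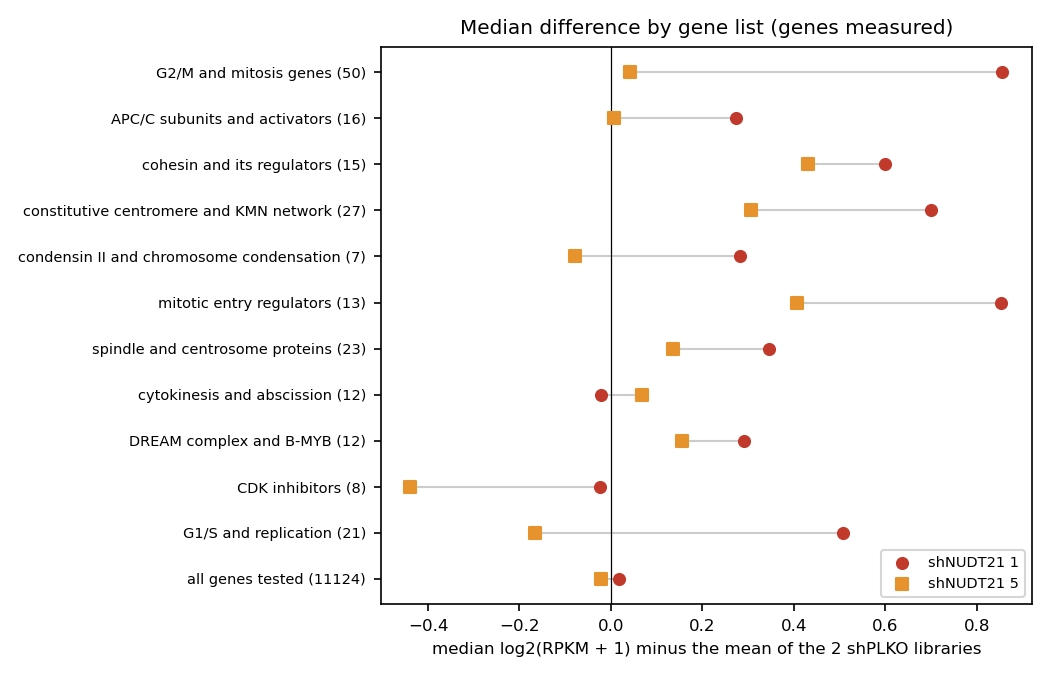
Median difference from the shPLKO mean, on the log2(RPKM + 1) scale, of the 50 members, of 10 other gene lists and of all 11124 genes tested, with shNUDT21 1 as circles, shNUDT21 5 as squares and the number of genes measured in brackets. The members have medians of 0.86 and 0.04, the cohesin list 0.60 and 0.43, and the G1/S and replication list 0.51 and -0.17.

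The promoters of the members shared the letters shown above. RefSeq windows from 250 bases before to 50 after each start were found for 42 of 50 members, 55 windows in all, and not for RACGAP1, FOXM1, TTK, TPX2, BIRC5, AURKA, UBE2C and BUB3. A CHR match (TTTGAA or TTTAAA on either strand) was in 72.7% of the members' windows, against 15.9% of 12822 windows of the genes tested and 24% of all 35116 windows. CCAAT on either strand was in 69.1%, against 34.7% and 34.6%, and both were in 52.7%, against 6.32% and 9.27%. CHR matches had their first base at a median of -33 from the start and CCAAT boxes at -87, and 5 matches shared a base with the next. The members were chosen as G2/M genes, so the share is a description of the programme and not a result of the knockdown.

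**Figure D5:**
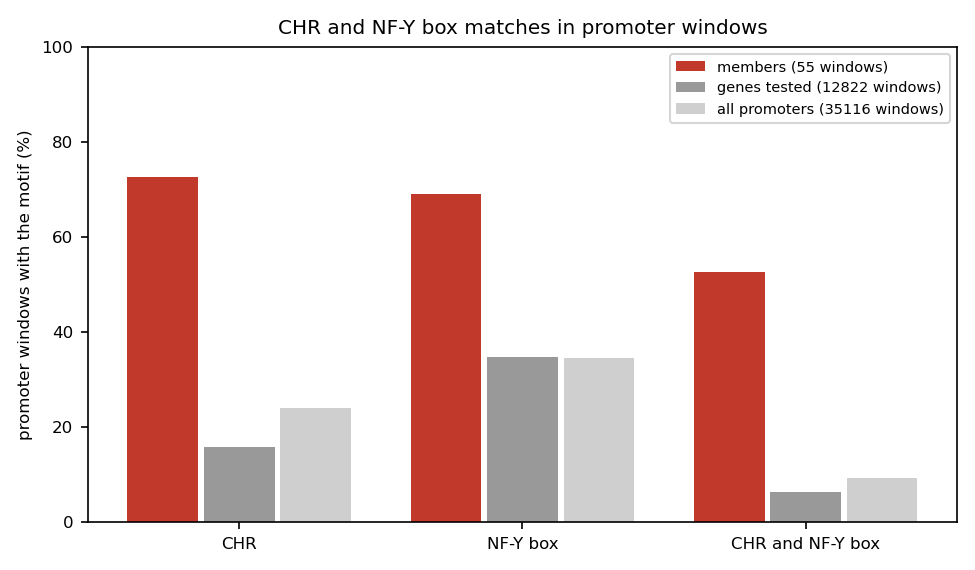
Share of promoter windows (%) that hold a CHR match, an NF-Y box (CCAAT) or both, for the members, the genes tested and all RefSeq promoters, with the number of windows in the legend. The members' bars are at 72.7%, 69.1% and 52.7%, above both other sets in each case.

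The median shNUDT21 1 difference was 0.89 in 35 members with a CHR match and 0.77 in 7 without, and 0.88 in 33 members with CCAAT and 1.01 in 9 without. In shNUDT21 5 the medians were 0.15 and 0.03 by CHR, and -0.02 with CCAAT against 0.56 without. The 0.56 is the value of CENPE, which, like SMC2 in the same group, passed the filter on low values through the knockdown libraries. No median was taken without them. The 9 members without CCAAT were BUB1B, NDC80, NUF2, CENPE, SMC2, SMC4, NCAPG, CKAP2 and ANLN, and NDC80, SMC4 and NCAPG among them were past 1.5-fold higher in both knockdown libraries; of the other such members, CDC25B, SPC24 and ECT2 had CCAAT and TTK had no window. This split was looked at after the values were seen and was not tested. Transcripts of the 9 members without CCAAT had GC contents from 35.3% (CENPE) to 43.2% (BUB1B), below the members' median of 43.5%. Over the members GC content went with the shNUDT21 5 difference (Spearman's rho -0.53). The split by CCAAT is thus in part a split by GC content, and the 2 were not tested apart.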

How the data were processed

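RNA sequencing was done on 4 libraries, 2 per group. Per the submitters' processing notes the tool Bowtie 0.12.2 and the genome build hg18 were used, roles unstated; counting tool, annotation and strand use were not given in the sources used here. Deposited values are RPKM computed by the authors, 1 library per file; the headers give no unit, so it was inferred from the values. Of 20030 rows per file 27 with a date in place of a symbol were left out, and 2397 of the 20003 genes left were at 0 throughout. Library totals and reads were recovered from the steps of low values and annotated transcript lengths (758 lengths gave the total, against 42 for the next), at most 1.66% apart; a gene's recovered reads could be off by a whole factor. Depth limits precision by counting error only as far as reads are independent molecules.

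The main test was limma 3.58.1 (R 4.3.3), intensity trend on, of log2(RPKM + 1), which understates differences of low genes, 2 libraries against 2, on the 11124 genes averaging 1 RPKM or more, two-sided, Benjamini-Hochberg adjusted p under 0.05 over all of them, with 2 residual and 2.71 prior degrees of freedom. All 50 members passed the filter. An exact permutation test of 2 against 2 cannot go below p = 0.333. Single libraries were compared by the 1.5-fold rule and by a 3-group limma fit with 1 residual degree of freedom, from the controls, and an infinite prior, so its p-values do not reflect spread between knockdown libraries. Scripts were tested on simulated data. Tests are printed for members past the test and for the 2 lowest unadjusted p in each role. They are also printed for the 5 widest and 5 narrowest splits between the knockdown libraries. Other lists name at most their 3 genes with the lowest p, apart from CCNE1 and CCNE2. The members, lists and rules were chosen with earlier results of these data known. Alternatives were pseudocount, filter, scaling, GC and length trend (a spline with 4 degrees of freedom, 11051 genes), variance trend, fold and leaving out each library. Exon overlaps are of at least 50 bases. By this rule 15 members overlap another gene, 4 of them on the same strand (BUB1B, CENPA, NUSAP1 and PRC1). The others are ANLN, CCNA2, CDC25C, FOXM1, HMMR, NCAPD2, NCAPG, PLK1, RACGAP1, SMC4 and SPC24. Annotated copies were found for 16 members. Promoter sequences are from RefSeq, GRCh38.p14, another build than hg18.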

Additional observations from a re-analysis of the deposited data

How the results depend on the processing

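No paired analysis was possible because the labels give no pairing between the libraries of the groups. In the main test limma called 2 members higher and 0 lower. With no filter on low genes 0 were called higher (12 members had an unadjusted p under 0.05). With median of ratios scaling 4 were called higher. There 17 members and 3827 of 11120 genes had an unadjusted limma p under 0.05, against 13 and 3773 of 11124 in the main test. With the trend of GC content and length removed 1 was called higher. Leaving out each library in turn gave 0 to 46 higher and 0 to 13 lower: 16 higher and 13 lower without shNUDT21 1, 46 and 1 without shNUDT21 5, and 0 and 0 without shPLKO 1 or 2, where 9 and 8 members had an unadjusted p under 0.05; with 1 library left in a group, that library is assumed to vary like the other group. Over all genes, where 290 were higher and 357 lower, no filter gave 0 and 0 (4762 at an unadjusted p under 0.05), leaving out shPLKO 1 gave 1 and 0 (1014), leaving out shPLKO 2 gave 0 and 0 (1177), and removing the GC and length trend gave 156 and 141. Without shNUDT21 1 they were 3606 and 4021, and without shNUDT21 5 they were 3737 and 3535. The members past 1.5-fold in shNUDT21 5 were 4 higher and 1 lower with the GC and length trend removed, against 7 and 6; the higher count was 10 with a pseudocount of 0.1 and 9 with median of ratios scaling. At 2-fold the counts were 17 higher in shNUDT21 1, 1 higher and 1 lower in shNUDT21 5, and 10 higher in shNUDT21 1 than in shNUDT21 5. The 3-group limma fit called 0 members between the knockdown libraries with no filter (44 at an unadjusted p under 0.05). The causes were not tested. The count past 1.5-fold in shNUDT21 1 was 33 to 39 and its median difference 0.756 to 0.95 under every 1.5-fold alternative; the shNUDT21 5 median stayed between 0.022 and 0.089. A pseudocount of 0.1 and no intensity trend left each limma count of members as it was. Shares of all genes past 1.5-fold were counted only for the main setting, so the counts under the alternatives have no such share beside them.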
